A study of Mus musculus with 72 samples.

Results

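The genes described here are 32 imprinted genes of the mouse that lie outside the Dlk1-Meg3 and Peg3 domains. They were listed by name and not selected by a cut on their values, but with earlier results of these data known. Their Ensembl identifiers were all found among the 55416 genes of the count table. In epididymal white adipose tissue (eWAT) 24 of the 32 had enough reads to be tested, in liver 21 and in pituitary 26.

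An imprinted gene is transcribed mainly from the chromosome copy inherited from one parent. The parental copies are told apart by DNA methylation set in the germ line at an imprinting control region, on the silent copy of some genes and on the expressed copy of others, and the mark is kept after fertilisation by the DNA methyltransferase DNMT1 and by zinc finger proteins such as ZFP57 that bind the methylated copy. Imprinted genes lie in clusters and are known for their part in fetal growth, placental supply, adipose expansion and postnatal feeding. Read counts per gene do not tell the parental copies apart, so all values below are sums over both.

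The libraries came from 24 male FVB.129P2 mice, with eWAT, liver and pituitary RNA from each mouse (72 libraries). The dams were fed ad libitum (FED) or received 20% fewer calories (CR20) from embryonic day 15 and through lactation, and from 8 weeks of age their sons were given food of 10% (CTRL) or 45% (HFD) fat. The 4 groups, FED-CTRL, FED-HFD, CR20-CTRL and CR20-HFD, held 6 mice each, with the 3 tissues of a mouse sharing its number. The labels give 10 or 16 weeks on the diets without assigning mice to either, the study's text places the sequenced males in the 10 week cohort, and the litter of each mouse is not given in the sources used here, so littermates may be present in a group.

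Total counts were 11589675 to 22364963 per eWAT library, 9842813 to 19928212 per liver library and 18299494 to 27601208 per pituitary library. The tissues matched their labels by marker sums in CPM, the count of a gene scaled to a common library size: an adipocyte list (Adipoq, Plin1 and others) summed to 10798 to 37826 CPM in eWAT and 41.8 to 167 CPM in liver. Several eWAT libraries stood apart. FED-HFD mouse 23 had the highest sum of the 8 macrophage markers (10249 CPM, against 830 to 3886 CPM in the other 23 eWAT libraries) and the lowest adipocyte sum. Epididymis genes were counted in the eWAT of CR20-CTRL mice 4 and 5 and CR20-HFD mouse 6 (Adam7: 2682, 716 and 64 counts), and the hepatocyte gene Alb in that of FED-HFD mouse 10 (6082 counts) and CR20-CTRL mouse 5 (5589 counts). The whole list of 6 hepatocyte genes ordered the libraries differently, with its highest sums in CR20-HFD mouse 32 (982 CPM) and CR20-CTRL mouse 33 (945 CPM), against 804 CPM in mouse 10 and 675 CPM in mouse 5. Results that change without these libraries are given both ways. Because these are bulk samples, fewer cells of a type and less RNA per cell cannot be told apart.

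Promoter windows are shown for members that the comparisons below turn on. Each runs from 250 bases before the 5′ end of the canonical GENCODE transcript through the first 50 transcribed bases (GRCm39), is written 5′ to 3′ on the strand given, and has its CpG dinucleotides in capitals. Over all 53489 promoters of the annotation the median was 5 CpGs, and 8.97% held the hexamer TGCCGC on either strand, the core that ZFP57 recognises when it is methylated. Among the 32 members the median was 12.5 CpGs and 11 (34.4%) held the hexamer, in 6 of 17 genes expressed from the paternal copy and 5 of 15 expressed from the maternal copy. The 15 include genes with maternal expression only in part or in some tissues, among them Copg2, Grb10 and Trappc9, which held the hexamer. The windows of Sgce and Peg10 cover nearly the same bases on opposite strands, so their hexamer was counted for both. The hexamer itself holds a CpG, and the background was not matched for CpG number or gene type. Whether the share in the members exceeds that of promoters with as many CpGs was not tested.
Plagl1, chr10:12966159-12966458, plus strand: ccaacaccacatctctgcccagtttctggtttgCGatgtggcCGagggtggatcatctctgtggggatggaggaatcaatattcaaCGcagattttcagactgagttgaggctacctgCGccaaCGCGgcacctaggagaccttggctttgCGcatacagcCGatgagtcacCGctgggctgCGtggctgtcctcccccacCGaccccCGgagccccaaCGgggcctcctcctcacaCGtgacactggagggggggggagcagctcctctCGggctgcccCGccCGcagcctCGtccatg
Igf2r, chr17:12988565-12988864, minus strand: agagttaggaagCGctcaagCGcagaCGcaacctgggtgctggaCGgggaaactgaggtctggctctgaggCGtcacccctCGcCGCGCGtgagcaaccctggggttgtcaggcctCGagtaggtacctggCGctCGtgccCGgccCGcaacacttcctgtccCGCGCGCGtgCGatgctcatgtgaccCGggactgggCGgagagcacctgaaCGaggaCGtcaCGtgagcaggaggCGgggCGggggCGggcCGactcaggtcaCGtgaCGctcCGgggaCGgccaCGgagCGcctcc
Mest, chr6:30737794-30738093, plus strand: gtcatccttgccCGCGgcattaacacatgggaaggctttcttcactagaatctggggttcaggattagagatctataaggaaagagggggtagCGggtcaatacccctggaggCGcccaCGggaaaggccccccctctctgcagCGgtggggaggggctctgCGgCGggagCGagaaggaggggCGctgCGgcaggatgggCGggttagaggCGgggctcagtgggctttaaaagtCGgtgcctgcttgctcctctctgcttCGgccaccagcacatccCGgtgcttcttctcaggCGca
The Igf2r window, at the promoter of a gene whose methylated control region lies elsewhere in the gene, held 34 CpGs and no hexamer. The paternally expressed genes had 18 CpGs and 1 hexamer (Plagl1) and 17 CpGs and 2 hexamers (Mest). A match is a description of the letters in this window and not a binding site, and methylation was not measured.

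The members differed far more between tissues than between groups. In the fit over all 72 libraries, 29 members were tested. Between eWAT and liver 25 of them differed (background 66.1% of 19210 genes tested), 21 higher in eWAT (background 38.7%) and 4 lower (27.4%). Between eWAT and pituitary 21 differed (background 70.3%), 9 higher in eWAT (35.6%) and 12 lower (34.7%). Between liver and pituitary 27 differed (background 76.5%), 6 higher in liver (35.1%) and 21 lower (41.4%). The median absolute log2 fold change of the members was 2.32, 1.85 and 3.65 in these comparisons, against 1.11, 1.16 and 1.5 over all genes, whose median signed value was 0.22, 0.04 and -0.15. The counts of members were equal with the mouse as a block.

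**Figure D1:**
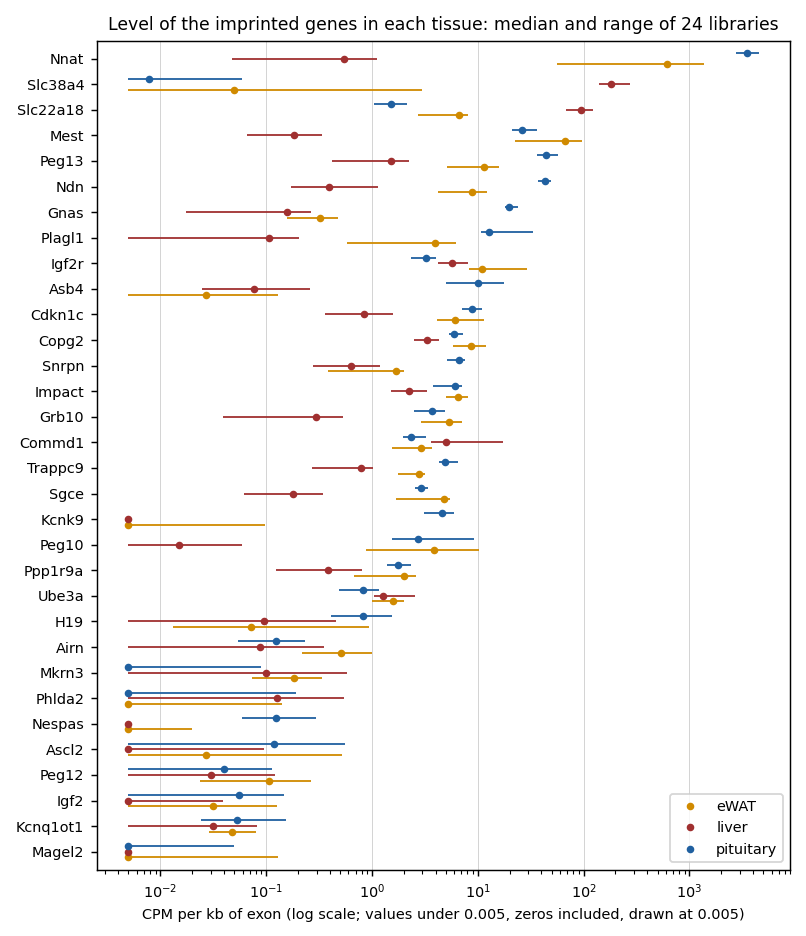
Level of each of the 32 genes in eWAT, liver and pituitary, in CPM per kb of exon on a log axis; points are medians and lines the range of 24 libraries, with values under 0.005 drawn at 0.005. Nnat is the highest member in pituitary and eWAT, and Slc38a4 and Slc22a18 are the highest in liver.

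Levels can be compared between genes per kb of exon. Nnat, which encodes the small membrane proteolipid neuronatin, had a median level of 3511 CPM per kb in pituitary (range 2752 to 4541), 615 in eWAT (56.6 to 1365) and 0.545 in liver. It was the highest member in pituitary, followed by the noncoding RNA Peg13 (44.5 CPM per kb, 36.4 to 57.2) and Ndn, which encodes the growth suppressor necdin (42.8 CPM per kb, 37.4 to 49.0). The ranges of Peg13 and Ndn overlapped, and both lay far below that of Nnat.

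In eWAT the order was Nnat, Mest (66.4 CPM per kb, 22.5 to 96.7), a member of the hydrolase fold family linked to adipocyte enlargement, and Peg13 (11.5 CPM per kb, 5.08 to 15.8). Igf2r, which clears IGF2 and carries lysosomal enzymes, came close behind Peg13 with 10.9 CPM per kb (8.25 to 29.1), and the ranges of both overlapped.

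Liver had a different order. Slc38a4, an amino acid transporter, had 182 CPM per kb (139 to 272), Slc22a18, an organic cation transporter like protein, 95.4 CPM per kb (68.9 to 123), and Igf2r 5.70 CPM per kb (4.17 to 8.11). These ranges did not overlap. Slc38a4 and Slc22a18 were the members with the clearest liver preference, with log2 fold changes of eWAT against liver of -10.22 (SE 0.43) and -3.92 (SE 0.08).

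Outside liver the members followed their clusters in part. In the Prader-Willi-Angelman cluster, Ndn (log2 fold change of liver against pituitary -6.70, SE 0.13) and Snrpn, a spliceosome protein gene (-3.30, SE 0.12), were highest in pituitary. Both were also read in eWAT, with medians of 742.5 and 371.5 counts. Their neighbours Magel2, Mkrn3 and Peg12 were at the edge of detection, with medians of 0 to 11 counts in every tissue and Magel2 at 0 counts in 24 of 24 liver libraries. Ube3a, a ubiquitin ligase gene imprinted in neurons, was 0.96 log2 units (SE 0.08) higher in eWAT than in pituitary.

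In the Peg13-Kcnk9 cluster, Kcnk9, which encodes a potassium leak channel, was read in pituitary (median 1606.5 counts) and had medians of 0 counts in eWAT and liver. Asb4, which encodes an ankyrin repeat protein, had a median of 1025 counts in pituitary, 2.5 in eWAT and 4.0 in liver. Gnas, the gene of the stimulatory G protein alpha subunit, had a median of 5801.5 counts in pituitary, 93.0 in eWAT and 20.0 in liver. Gnas and its antisense RNA Nespas share 1112 exonic bases on opposite strands, out of 12003 exonic bases of Gnas. The strand setting of the authors' counting is not given in the sources used here, so reads of such pairs may have been mixed or left out. Whether the low counts of Gnas in eWAT and liver reflect its expression there was not tested.

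Peg10, Mest, Plagl1 and Sgce, which are expressed from the paternal copy, were abundant in eWAT and pituitary and nearly absent from liver. Peg10, a gene derived from a retrotransposon and needed in the placenta, had a log2 fold change of eWAT against liver of 8.05 (SE 0.32), Mest 8.47 (SE 0.15), Plagl1, a zinc finger growth regulator, 5.22 (SE 0.20), and Sgce, the epsilon sarcoglycan gene, 4.68 (SE 0.11). Grb10, expressed from the maternal copy in most tissues and encoding an adaptor that dampens insulin and IGF receptor signalling, showed 4.15 (SE 0.12). Of these 5 genes, Peg10 and Grb10 did not pass the call rule between eWAT and pituitary, with 0.23 (SE 0.18) and 0.49 (SE 0.10).

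The fetal growth genes of the Igf2-Kcnq1 cluster were close to silent in these adult tissues. The growth factor gene Igf2 had medians of 4.0, 0 and 8.5 counts in eWAT, liver and pituitary, and Phlda2 and Ascl2, which act in the placenta, had medians of 0 to 5 counts in each tissue. H19, the noncoding RNA beside Igf2, reached a median of 59.0 counts in pituitary, 5.0 in eWAT and 3.0 in liver. Cdkn1c, which encodes the cell cycle inhibitor p57, had higher counts, with medians of 295.0 counts in eWAT and 451.5 in pituitary. Kcnq1ot1, the antisense RNA of the cluster, had medians of 103.5, 31.5 and 123.5 counts.

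Within groups, some members were among the steadiest genes and others among the most variable. In pituitary the SD of log2 CPM between mice of a group was 0.08 for Ndn and 0.09 for Gnas (median of all genes tested 0.22). In eWAT it was 2.0 for Slc38a4, 0.81 for Peg10 and 0.78 for Nnat (median of all genes 0.30). Slc38a4 had a median of 7.5 counts in eWAT, and its highest values were 345 and 153 counts in CR20-CTRL mice 5 and 4, 85 in FED-HFD mouse 10 and 48 in CR20-HFD mouse 7.

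In the eWAT of FED offspring 2 members were called between the diets, a share close to that of all genes. Plagl1 fell and Igf2r rose in FED-HFD compared with FED-CTRL mice, and these were 2 of 24 members against a background of 8.01% (1278 of 15964 genes, of which 1025 or 6.42% were higher and 253 or 1.58% lower). Genes were called at an adjusted p of at most 0.055 (edgeR quasi-likelihood test, Benjamini-Hochberg) with an absolute log2 fold change of at least 0.58, the thresholds of the study. The median log2 fold change of the 24 members was -0.21, with 9 above 0, and that of all genes was 0.00.

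Plagl1 in eWAT was 43.0 to 60.2 CPM (median 50.3) in FED-CTRL mice, 6.06 to 39.6 CPM (median 21.4) in FED-HFD mice, 30.7 to 64.2 CPM (median 45.7) in CR20-CTRL mice and 31.7 to 62.5 CPM (median 42.2) in CR20-HFD mice. Every FED-HFD mouse was below every FED-CTRL mouse, while the CR20 groups overlapped each other and both FED groups. On the log2 CPM scale the means were 5.66 ± 0.21 in FED-CTRL and 4.38 ± 0.97 in FED-HFD (SD, n = 6). The log2 fold change was -1.07 (SE 0.29, adjusted p = 0.0195, exact permutation p = 0.00216, the smallest that 6 against 6 mice can give). Without mouse 23, the lowest library, it was -0.87 (adjusted p = 0.0230), and Plagl1 was called without each of the 24 eWAT libraries in turn. In a fit of these 2 groups alone the adjusted p was 0.0554, just over the threshold.

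Igf2r in eWAT was 105 to 136 CPM (median 123) in FED-CTRL mice, 108 to 330 CPM (median 168) in FED-HFD mice, 94.7 to 152 CPM (median 119) in CR20-CTRL mice and 96.5 to 135 CPM (median 122) in CR20-HFD mice. The FED-HFD group reached higher than the others but its lowest mouse lay within the FED-CTRL range. The log2 fold change of FED-HFD against FED-CTRL was 0.60 (SE 0.19, adjusted p = 0.0401, exact permutation p = 0.0346). It was 0.35 without mouse 23 (adjusted p = 0.169). The call held in 15 of 24 fits with a library left out, and the 24 include CR20 libraries, which are not in this comparison. It was lost without any of the 6 FED-CTRL mice or FED-HFD mouse 12, 13 or 23 (0.35 to 0.63). It was also lost in a fit of the 2 groups alone (adjusted p = 0.0901) and by limma voom, where the log2 fold change was 0.43.

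The same members differed between CR20-HFD and FED-HFD mice, in the opposite direction, and the comparison shares the 6 FED-HFD mice with the one above. Again 2 of 24 members were called (background 9.73%, 1554 of 15964 genes, with 391 or 2.45% higher and 1163 or 7.29% lower in CR20-HFD). Igf2r was lower in CR20-HFD (-0.66, SE 0.19, adjusted p = 0.0199, exact permutation p = 0.0238) and Plagl1 was higher (0.87, SE 0.29, adjusted p = 0.0451, exact permutation p = 0.0216). Without mouse 23 no member was called by edgeR, 7 of 24 had an unadjusted p under 0.05 (23.1% of all genes in the same fit), and the log2 fold changes were -0.41 for Igf2r (adjusted p = 0.0754) and 0.67 for Plagl1 (adjusted p = 0.0687). With 1 library left out in turn Igf2r was called in 23 of 24 fits, though not by limma voom (-0.51, under the fold limit), and Plagl1 in 15 of 24, the latter lost without CR20-HFD mouse 6, 31, 32 or 46, FED-HFD mouse 12, 13, 23 or 40, or FED-CTRL mouse 41. The 24 include the CTRL libraries, which are in the fit but not in this comparison. The members had a median log2 fold change of 0.19, with 16 of 24 above 0, against 0.02 over all genes.

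**Figure D2:**
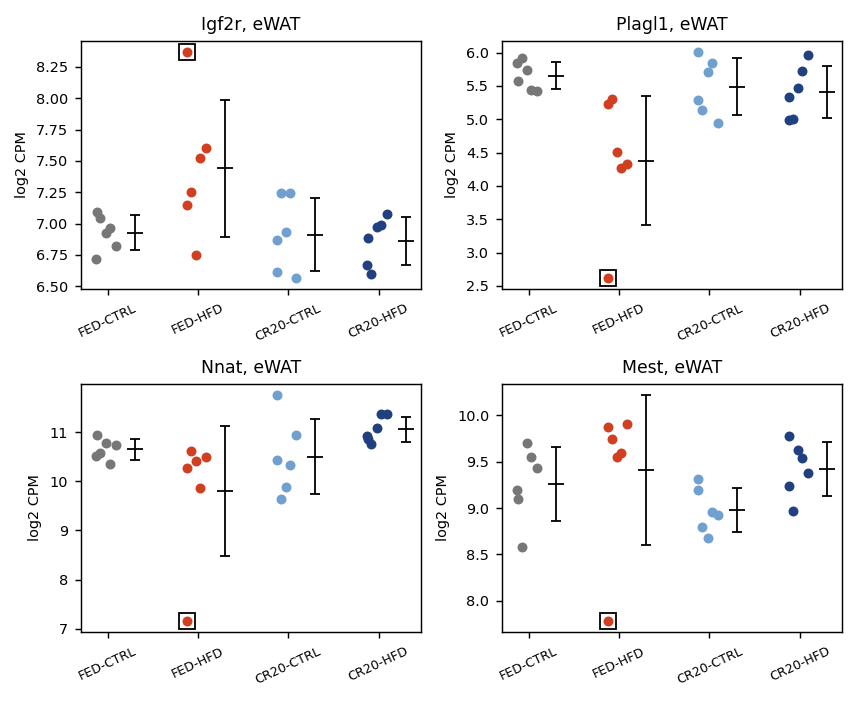
Log2 CPM of members in eWAT by mouse in the 4 groups, with bars at group means and the SD (n = 6) and mouse 23 marked. Plagl1 in all 6 FED-HFD mice lies below all 6 FED-CTRL mice, and mouse 23 is the lowest for Plagl1 and Nnat and the highest for Igf2r.

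Further members moved in these comparisons by less than the fold limit or without passing the adjusted p. Trappc9, a vesicle tethering factor gene that contains Peg13, was 82.2 to 90.9 CPM (median 84.8) in FED-CTRL mice and 49.7 to 79.2 CPM (median 70.1) in FED-HFD mice, with no overlap (-0.31, SE 0.09, adjusted p = 0.0270). Peg13 was 66.7 to 80.6 CPM (median 71.9) in FED-CTRL mice and 29.1 to 63.8 CPM (median 52.4) in FED-HFD mice, also with no overlap (-0.49, SE 0.15, adjusted p = 0.0430). Trappc9 and Peg13 share 1293 exonic bases on the same strand, so their counts may not be independent. With no fold limit and an adjusted p under 0.05, 4 of 24 members passed against a background of 10.5%.

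Slc22a18 in eWAT was 6.11 to 16.9 CPM (median 11.5) in FED-HFD mice and 13.5 to 18.0 CPM (median 17.5) in CR20-HFD mice. The groups overlapped, and the log2 fold change was 0.56 (SE 0.17, adjusted p = 0.0282, exact permutation p = 0.0173), under the fold limit. Nnat was 143 to 1577 CPM (median 1298) in FED-HFD mice and 1742 to 2625 CPM (median 2064) in CR20-HFD mice. All CR20-HFD mice were above all FED-HFD mice, with a log2 fold change of 0.96 (SE 0.37, adjusted p = 0.0826), which did not pass by edgeR. It was called by limma voom (0.77, adjusted p = 0.0227) and DESeq2 (0.95, adjusted p = 0.0465).

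**Figure D3:**
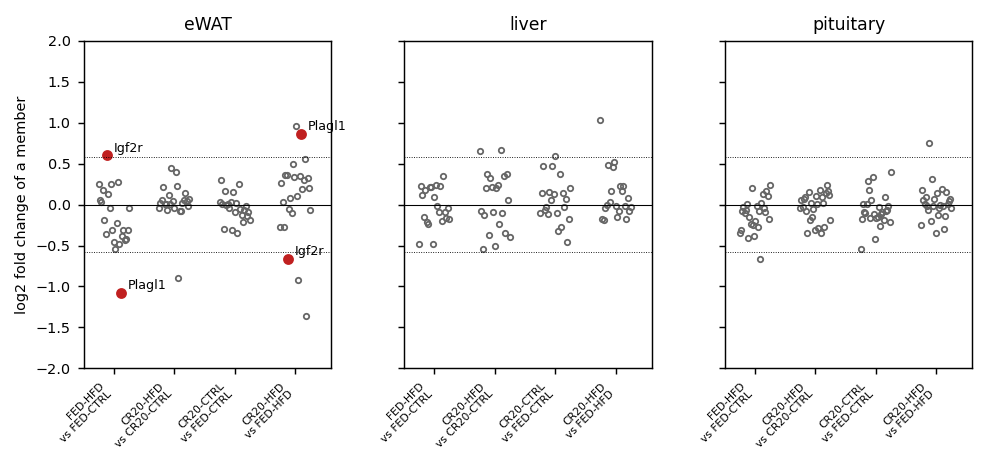
Log2 fold change of each tested member in the 4 comparisons of groups in eWAT, liver and pituitary, one point a member, with called members marked. Slc38a4 in eWAT is off the axis in 3 comparisons (2.41, -2.96 and 4.01), and the called points are Plagl1 and Igf2r in eWAT.

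Macrophage markers moved in the same eWAT comparisons. All 8 macrophage markers were called higher in FED-HFD than in FED-CTRL mice (median log2 fold change 1.59, background 8.01%). All 8 were called lower in the CR20-HFD group than in the FED-HFD group (median -1.87, background 9.73%). Without mouse 23 these counts were 5 of 8 (median 1.07, background 4.06%) and 8 of 8 (median -1.34, background 5.33%). The paper named Cd68 and Cd84 from the same eWAT data for these changes, so their direction was known when the list was made. Their summed level was 1218 to 1815 CPM in FED-CTRL mice, 1957 to 10249 in FED-HFD mice, 830 to 2036 in CR20-CTRL mice and 927 to 1739 in CR20-HFD mice. Of the 7 adipocyte markers 0 were called by edgeR in either comparison, with median log2 fold changes of -0.29 and 0.35 and 1 marker (Plin1) at an unadjusted p under 0.05 in each. The part of the macrophage or adipocyte markers in the changes of Plagl1 and Igf2r was not tested.

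Across the 24 eWAT libraries, with group means removed, the level of Nnat followed the adipocyte sum (Pearson's r = 0.86, Spearman's rho = 0.74, permutation p = 1e-05 for r, the smallest that 100000 permutations can give, adjusted p = 8.0e-05) and ran against the macrophage sum (r = -0.85, rho = -0.66). Without the 2 mice farthest from the median these were r = 0.80 and r = -0.63. For Plagl1 and Igf2r the relations with the macrophage sum were r = -0.76 (rho = -0.45, adjusted permutation p = 0.00139) and r = 0.61 (rho = 0.31, adjusted permutation p = 0.00894), and without the 2 farthest mice r = -0.41 and r = 0.28, so much of each rested on those mice. Their relations with the adipocyte sum were r = 0.62 (rho = 0.28, adjusted permutation p = 0.00894) and r = -0.68 (rho = -0.52, adjusted permutation p = 0.00188). Without the 2 farthest mice these became r = 0.24 and r = -0.36. For Mest they were r = 0.66 with the adipocyte sum and r = -0.66 with the macrophage sum (r = 0.41 and r = -0.22 without the 2 farthest). These 4 genes and 4 marker lists gave 16 relations, chosen after the values were seen.

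**Figure D4:**
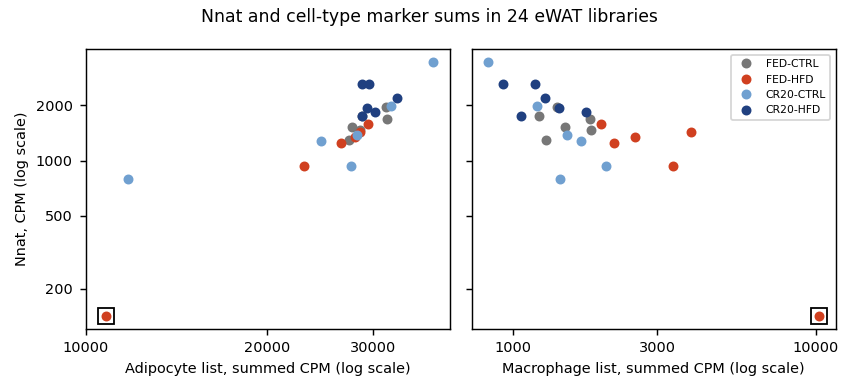
Nnat in CPM against the summed CPM of adipocyte markers (left) and macrophage markers (right) in 24 eWAT libraries, log axes, coloured by group, with mouse 23 in a square. Nnat is higher where the adipocyte sum is higher and lower where the macrophage sum is higher, and mouse 23 has 143 CPM.

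The remaining 5 eWAT comparisons called 0 of 24 members by edgeR, with 1 to 5 members at an unadjusted p under 0.05 (6.03% to 24.3% of all genes). Limma voom called Plagl1 in HFD against CTRL over both maternal groups, and DESeq2 called Slc38a4 in the difference of diet effects. The backgrounds were 0% for CR20-HFD against CR20-CTRL and for CR20-CTRL against FED-CTRL, 3.96% for CR20 against FED over both diets, 0.175% for HFD against CTRL over both maternal groups and 2.42% for the difference between the diet effects of CR20 and FED offspring. Without mice 4, 5 and 6 the background of the difference of diet effects was 0%. The lowest p in the 5 comparisons, with all mice, belonged to Copg2, Plagl1 and Slc38a4.

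Copg2, a coatomer subunit gene, was 99.5 to 147 CPM (median 126) in FED-CTRL, 78.5 to 165 (154) in FED-HFD, 88.7 to 130 (96.0) in CR20-CTRL and 94.5 to 144 CPM (115) in CR20-HFD mice. The groups overlapped, and the log2 fold change of CR20 against FED over both diets was -0.28 (SE 0.10, adjusted p = 0.0959). Mest was 410 to 634 CPM (median 492) in CR20-CTRL mice and 501 to 880 CPM (median 704) in CR20-HFD mice, with overlap (0.45, SE 0.24, adjusted p = 0.876). In CR20-CTRL against FED-CTRL mice Slc38a4 had a log2 fold change of 4.01 (SE 1.30, adjusted p = 0.337), which rested on CR20-CTRL mice 4 and 5 (153 and 345 counts, against 5 to 9 counts in the 6 FED-CTRL mice).

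In eWAT, HFD against CTRL over both maternal groups gave Plagl1 -0.58 (SE 0.20, adjusted p = 0.151) and Peg13 -0.28 (SE 0.11, adjusted p = 0.182). The difference between the diet effects of CR20 and FED offspring was -0.66 for Igf2r (SE 0.26, adjusted p = 0.189) and 0.99 for Plagl1 (SE 0.40, adjusted p = 0.203). The diet effect on these genes was therefore not shown to differ between the maternal groups.

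In liver no member passed the call rule in any of the 7 comparisons by edgeR, limma voom or DESeq2, with 0 to 6 of 21 members at an unadjusted p under 0.05 (1.76% to 13.2% of all genes). The backgrounds were 0.109% for FED-HFD against FED-CTRL, 0.522% for CR20-HFD against CR20-CTRL, 1.26% for HFD against CTRL over both maternal groups and 0% for the others. Slc22a18 and Igf2r had the smallest p among the members in each of the diet comparisons.

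Slc22a18 in liver was 108 to 136 CPM (median 109) in FED-CTRL, 120 to 169 (152) in FED-HFD, 95.9 to 132 (119) in CR20-CTRL and 99.9 to 170 CPM (155) in CR20-HFD mice. It was higher on HFD at the median in both maternal groups, with overlapping ranges. Over both maternal groups the log2 fold change was 0.35 (SE 0.09, adjusted p = 0.0477), past the p threshold and under the fold limit. With no fold limit it was the 1 member of 21 that passed, against a background of 1.74%.

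Igf2r in liver was 38.0 to 45.5 CPM (median 41.0) in FED-CTRL, 29.7 to 40.8 (34.6) in FED-HFD, 32.2 to 57.7 (45.5) in CR20-CTRL and 30.6 to 44.1 CPM (35.5) in CR20-HFD mice. The HFD groups had the lower medians with overlap, and the log2 fold change over both maternal groups was -0.30 (SE 0.09, adjusted p = 0.0867). Slc38a4, the highest member in liver, was 715 to 999 CPM (median 922) in FED-CTRL, 723 to 921 (840) in FED-HFD, 729 to 1277 (885) in CR20-CTRL and 623 to 939 CPM (693) in CR20-HFD mice, and these ranges overlapped.

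The members with the smallest p in the maternal comparisons of liver had few counts. For CR20-CTRL against FED-CTRL, Ndn had 8 to 43 against 11 to 22 counts (0.59, SE 0.39) and Snrpn 28 to 83 against 49 to 122 (-0.45, SE 0.30). For CR20-HFD against FED-HFD, Airn, the antisense RNA of Igf2r, had 2 to 48 against 1 to 11 counts (1.03, SE 0.57) and Mest 5 to 27 against 6 to 23 (0.51, SE 0.33). Over both diets Mest (0.32, SE 0.22) and Kcnq1ot1 (0.47, SE 0.34) had the smallest p. All these ranges overlapped, and none of these genes passed the adjusted p. The difference of diet effects was 1.13 for Airn (SE 0.80) and -0.66 for Commd1, a copper handling and NF-kB regulator gene (SE 0.48).

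In pituitary no member passed the call rule in any of the 7 comparisons by edgeR, limma voom or DESeq2, and 4 to 8 of 26 members had an unadjusted p under 0.05 (6.23% to 17.3% of all genes). The background was 0.006% for HFD against CTRL over both maternal groups and 0% for the others. H19 was 2.11 to 3.22 CPM (median 2.56) in FED-CTRL, 1.29 to 2.48 (1.94) in FED-HFD, 2.41 to 3.30 (3.03) in CR20-CTRL and 2.49 to 4.90 CPM (3.14) in CR20-HFD mice, from 27 to 100 counts a library. Every CR20-HFD mouse was above every FED-HFD mouse (0.75, SE 0.18, exact permutation p = 0.00216), but over all genes the adjusted p was 0.388.

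Igf2r in pituitary was 28.7 to 42.1 CPM (median 33.2) in FED-CTRL, 24.2 to 33.9 (28.7) in FED-HFD, 30.8 to 41.7 (35.1) in CR20-CTRL and 33.6 to 42.4 CPM (35.1) in CR20-HFD mice. The FED-HFD group had the lowest median and overlapped the others (CR20-HFD against FED-HFD 0.31, SE 0.10, adjusted p = 0.524). Ndn was 181 to 205 CPM (median 187) in FED-CTRL, 177 to 205 (183) in FED-HFD, 159 to 192 (168) in CR20-CTRL and 163 to 181 CPM (169) in CR20-HFD mice. It was lower at the median in both CR20 groups, with a log2 fold change over both diets of -0.14 (SE 0.04, adjusted p = 0.216).

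Grb10 in pituitary was 38.6 to 44.2 CPM (median 40.2) in FED-CTRL, 28.5 to 46.3 (42.4) in FED-HFD, 42.3 to 56.5 (49.8) in CR20-CTRL and 29.3 to 46.7 CPM (40.1) in CR20-HFD mice. The CR20-CTRL group had the highest median and overlapped the others (CR20-HFD against CR20-CTRL -0.35, SE 0.10, adjusted p = 0.539). Nnat was 7072 to 10450 CPM (median 8863) in FED-CTRL and 6461 to 7820 CPM (median 7409) in CR20-CTRL mice, with overlap (-0.26, SE 0.08, adjusted p = 0.126). Impact, a translational regulator gene, was 36.0 to 62.8 CPM (median 49.8) in FED-CTRL and 56.8 to 70.6 CPM (median 61.3) in CR20-CTRL mice, with overlap (0.34, SE 0.12, adjusted p = 0.149).

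The other members named by the smallest p in pituitary moved less. Trappc9 was 126 to 171 CPM (median 140) in FED-CTRL and 117 to 150 CPM (median 123) in FED-HFD mice (-0.17, SE 0.08). Ppp1r9a, which encodes the actin-binding protein neurabin, was 27.3 to 40.1 CPM (median 31.9) in CR20-CTRL and 23.4 to 29.6 CPM (median 27.2) in CR20-HFD mice (-0.27, SE 0.10). Snrpn had a log2 fold change of 0.13 (SE 0.05) for HFD against CTRL over both maternal groups. The groups of Trappc9 and Ppp1r9a overlapped.

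The diet effect in FED offspring differed between tissues for Igf2r and Slc22a18, in a comparison chosen after the values were seen. For Igf2r the log2 fold change of FED-HFD against FED-CTRL was larger in eWAT than in liver by 0.86 (SE 0.20, adjusted p = 0.00587) and larger in eWAT than in pituitary by 0.82 (adjusted p = 0.0120). For Slc22a18 it was smaller in eWAT than in liver, by -0.77 (SE 0.21, adjusted p = 0.0179). Between eWAT and liver these were 2 of 29 members against a background of 4.16%, and between eWAT and pituitary Igf2r and Kcnk9 were called against 3.08%. Without mouse 23 the difference to liver was 0.61 for Igf2r (adjusted p = 0.0464, still called) and -0.64 for Slc22a18 (adjusted p = 0.0739), and that of Igf2r to pituitary was 0.57 (adjusted p = 0.0924). With the mouse as a block the values were 0.79, -0.81 and 0.74, all called. Kcnk9 had at most 27 counts in eWAT, reached in FED-HFD mouse 13, and its call was lost with the block (adjusted p = 0.236). In that library a list of 6 genes of posterior lobe, hypothalamus and neurons summed to 17.0 CPM, against a FED-HFD median of 0.439 CPM in eWAT. The difference between tissues was not fitted without mouse 13.

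A list of 23 genes of imprint establishment and maintenance was read beside the members. In eWAT all 23 were tested. In FED-HFD against FED-CTRL 5 of 23 were called (background 8.01%), all higher: Dnmt1 (0.75, SE 0.22), the maintenance DNA methyltransferase, its partner Uhrf1 (0.98, SE 0.27), the de novo methyltransferase Dnmt3a (1.18, SE 0.27), the chromatin remodeller Hells (0.78, SE 0.21) and Dppa3 (2.27, SE 0.52), which protects maternal methylation in the zygote. In CR20-HFD against FED-HFD the same 5 and Dnmt3l were called, all lower (6 of 23, background 9.73%). Dnmt3a was 56.9 to 73.5 CPM (median 59.4) in FED-CTRL, 66.4 to 310 (116) in FED-HFD, 46.4 to 89.3 (62.3) in CR20-CTRL and 48.7 to 61.4 CPM (53.9) in CR20-HFD mice. All 6 CR20-HFD mice were below all FED-HFD mice. The level of Dppa3 was low, with medians of 0.433 and 1.67 CPM in FED-CTRL and FED-HFD mice. Zfp57, Zfp445 and Trim28, which bind the imprinted copy or are recruited there, were not called. Without mouse 23, 2 were called in the first comparison (Dnmt3a and Dppa3, background 4.06%) and 3 in the second (these and Dnmt3l, background 5.33%). For CR20 against FED over both diets Dnmt3a and Dppa3 were called lower (background 3.96%), and 0 without mouse 23. The difference of diet effects called Dnmt3a alone of the list (background 2.42%), also without mouse 23, but not when mice 4, 5 and 6 were left out as well. In that last fit 0 of all 16099 genes tested were called. In liver (20 tested) and pituitary (19 tested) none of the list was called. The summed macrophage markers moved in the same comparisons, and their part was not tested.

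Pairs of members on the same chromosome were compared across mice, with group means removed, where both genes were tested. They were neighbours in a cluster, except Grb10 and Commd1, which lie in separate clusters of chromosome 11. In eWAT 7 of 9 pairs, in liver 4 of 8 and in pituitary 1 of 11 passed an adjusted p under 0.05 by permutation. Of these, 6 of the 7 in eWAT and 1 of the 4 in liver were positive, and that in pituitary was positive. The median r of the pairs was 0.48 in eWAT, -0.23 in liver and 0.19 in pituitary. Over pairs of members on different chromosomes the median r was 0.11 (232 pairs, 5th to 95th percentile -0.56 to 0.76), 0.10 (183 pairs, -0.69 to 0.73) and -0.03 (274 pairs, -0.46 to 0.43), so that most of these pairs lay within the range of unlinked pairs.

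Mest and Copg2 gave the strongest relation in eWAT, with Pearson's r = 0.92 and Spearman's rho = 0.88 (adjusted permutation p = 9.0e-05) and r = 0.84 without the 2 mice farthest from the median. In pituitary they had r = 0.64 (rho = 0.55, adjusted p = 0.00968) and in liver, where Mest had 5 to 35 counts, r = -0.49 (rho = -0.49, adjusted p = 0.0303). The pituitary relation did not pass with the means of animal-number ranges removed (r = 0.51, adjusted p = 0.0582), nor the liver relation without subtraction of group means (r = -0.35, adjusted p = 0.143). Mest and Copg2 overlap on opposite strands over 3850 exonic bases, and a share of the reads may have been counted for the wrong gene if strand was not used.

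**Figure D5:**
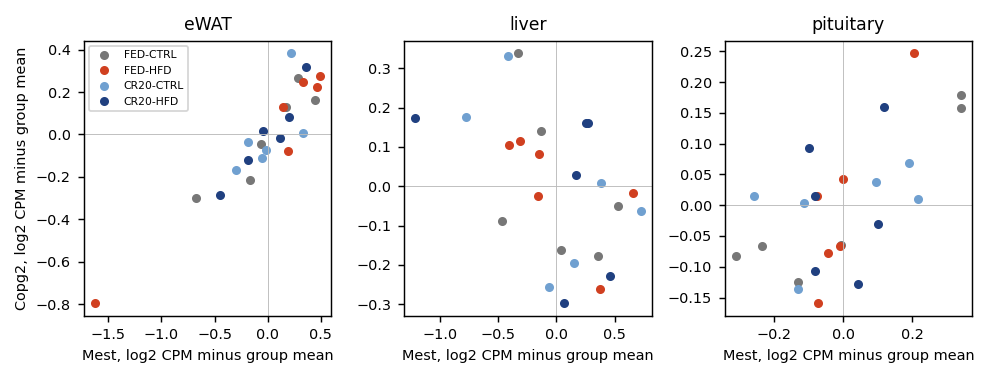
Copg2 against Mest, each as log2 CPM minus the mean of its group, in eWAT, liver and pituitary, one point a mouse (24 each). The points rise together in eWAT (r = 0.92) and pituitary (r = 0.64) and not in liver (r = -0.49).

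Among the other neighbours in eWAT, Ndn and Snrpn had r = 0.65 (rho = 0.59, adjusted p = 0.00207) and r = 0.58 without the 2 farthest mice. Sgce and Peg10 had r = 0.55 (rho = 0.42, adjusted p = 0.0177) and r = 0.32 without the 2 mice farthest for Sgce, and in pituitary r = 0.43 (adjusted p = 0.145). Sgce and Ppp1r9a had r = 0.76, which fell to r = 0.36. Peg13 and Trappc9, which share exonic bases, had r = 0.48 in eWAT (adjusted p = 0.0344) and r = 0.80 in liver (adjusted p = 0.00048, r = 0.81 without the 2 farthest). The negative relations were those of Cdkn1c and Kcnq1ot1 in liver (r = -0.50, rho = -0.55, adjusted p = 0.0303, r = -0.46 without the 2 farthest) and of Grb10 and Commd1. The latter had r = -0.47 in eWAT (rho = -0.55, adjusted p = 0.0344) and r = -0.61 in liver (rho = -0.33, adjusted p = 0.00952), which became r = -0.34 and r = -0.26 without the 2 farthest mice. In eWAT it did not pass without subtraction of group means (adjusted p = 0.0728). Counts in liver were low, with 8 to 34 for Cdkn1c, 5 to 73 for Kcnq1ot1 and 4 to 75 for Grb10.

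With group means removed, levels of a member in 2 tissues of the same mouse were not shown to be related. Some members had few counts in liver (medians of 9.0 for Plagl1 and 12.0 for Nnat), which limits the comparisons with liver. Of 21 members tested in both eWAT and liver, 21 in eWAT and pituitary and 20 in liver and pituitary, 0 passed an adjusted permutation p under 0.05. Igf2r had r = 0.56 between eWAT and liver (rho = 0.58, p = 0.00549 by permutation, adjusted p = 0.115), and r = 0.65 without the 2 farthest mice. It was the 1 member of 21 with r of at least 0.5, which 3.18% of all genes reached.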

How the data were processed

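The measured values were read counts per Ensembl gene in 72 libraries, deposited by the authors as raw counts in 1 table. Per the labels, RNA was prepared with a stranded total RNA kit, and the submitters' processing notes name FastQC, Trimmomatic, STAR, Subread and limma with GRCm39; versions and the strand setting are not given in the sources used here. No column was left without a sample, and no pair of libraries held identical counts.

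From the counts, each tissue was fitted with edgeR 4.0.16 in R 4.3.3 (filterByExpr, TMM, quasi-likelihood test, 24 libraries, 4 group means), and the tissues were compared in a fit of all 72 libraries. p-values were adjusted (Benjamini-Hochberg) over all genes tested, and genes were called at an adjusted p of at most 0.055 with an absolute log2 fold change of at least 0.58, as in the study. Each tissue had 7 comparisons, 21 in all. Values in the text are CPM with TMM factors, log2 values have a prior count of 2, and levels between genes are divided by exon length (GENCODE M39). A single gene's groups were also compared by the exact permutation test over the 924 splits of 6 against 6 mice, two-sided. Correlations used 100000 permutations, two-sided, with Benjamini-Hochberg adjustment over the pairs or members of a tissue. The 2 farthest mice were picked anew for each relation. Their distance was taken from the median of 1 variable only: the first gene named, the marker sum or the first tissue named. The scripts were tested on simulated data.

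Mice of 1 tissue are different animals in each group, so no block was used there. Across tissues the number marks the same mouse, and the deviations of the 2 libraries of a mouse had median correlations of 0.03 to 0.04. The alternatives were limma 3.58.1 voom with quality weights (the study's test), DESeq2 1.42.0, other scaling, filters, call rules and prior count, the range of animal numbers as a covariate, the mouse as a block across tissues, and each mouse left out in turn. Leaving out mice that stood apart, and the diet effect compared between tissues, were added after the data were seen.

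The members and lists were chosen with earlier results of these data known. Values per group are given for members called within a tissue, for the 2 members with the smallest unadjusted edgeR p in each comparison, and for the 3 with the highest level per kb in each tissue; Nnat and Trappc9 with Peg13 in eWAT were also described for their separate groups, seen in the values. The list of 23 imprint maintenance genes is given by counts and by its called genes.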

Additional observations from a re-analysis of the deposited data

Results flagged for a closer look

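In 44 groups of 6 mice, a library far from the others was looked for by Dixon's ratio, which chance exceeds in about 1 of 20 groups. In eWAT of FED-HFD mice, mouse 23 was far below the others for Mest (220 CPM), Nnat (143 CPM) and Peg13 (29.1 CPM). In liver of CR20-HFD mice, mouse 32 was far below the others for Slc22a18 (99.9 CPM). Mouse 23 also had the highest macrophage sum and the lowest adipocyte sum of the eWAT libraries (10249 and 10798 CPM), and the part of these cells in its values was not tested.

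With no block for the mouse, the effect of HFD differed between tissues for 4 members, and with the mouse as a block Kcnk9 and H19 were not called. In FED offspring the log2 fold change in eWAT minus that in liver was 0.86 for Igf2r and -0.77 for Slc22a18, and in eWAT minus that in pituitary it was 0.82 for Igf2r and 5.30 for Kcnk9 (adjusted p = 0.236 with the block). Over both maternal groups the difference between eWAT and liver was 0.60 for Igf2r and 2.53 for H19 (background 1.26% of genes tested). H19 had at most 51 counts in eWAT and 14 in liver, and its adjusted p of 0.0348 was 0.137 with the mouse as a block and 0.0708 without mouse 23. For Igf2r this difference over both maternal groups was 0.56 with the block and 0.47 without mouse 23, under the fold limit in both cases.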

How the results depend on the processing

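Members called in eWAT depended on the call rule and the fit. For FED-HFD against FED-CTRL (2 called), 1 was called with a log2 fold change of at least 1, by limma voom, with no filter on low counts, and without mice 4, 5, 6 and 23 (backgrounds 4.7%, 9.66%, 3.25% and 5.34%), and 4 with no fold limit (10.5%). For CR20-HFD against FED-HFD (2 called), 0 were called with a log2 fold change of at least 1 (background 5.49%), 1 with no filter (4.08%), 1 without mice 4, 5, 6 and 23 (Nnat, 0.75, adjusted p = 0.0502, background 6.89%), and 3 each by limma voom (Nnat, Plagl1 and Slc22a18, background 9.34%), by DESeq2 (Igf2r, Nnat and Plagl1, 11.2%), with animal-number ranges in the model (10.5%) and with no fold limit (14.9%). In fits of only the groups compared, 0 members were called in both (7.08% and 7.94%). With 1 mouse left out in turn, 1 to 3 members were called in the first comparison (backgrounds 4.06% to 9.56%), 0 to 3 in the second (5.33% to 11.3%) and 0 to 1 in the difference of diet effects (0% to 4.46%), where DESeq2 also called 1 (Slc38a4, background 5.14%). For HFD against CTRL over both maternal groups, limma voom called 1 in eWAT, and 1 passed in liver with no fold limit. With the means of animal-number ranges removed, 1 member (Igf2r, r = 0.66, adjusted p = 0.0168) correlated between eWAT and liver. The cause of these changes was not tested.

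Genes with few counts turned direction, none of them called in the comparison and fit where it turned. In eWAT, Slc38a4 became 2.27 for CR20-HFD against CR20-CTRL without mice 4, 5 and 6, and 2.27 without mouse 23 as well. For CR20-CTRL against FED-CTRL it became -0.28 by limma voom and -0.98 in both of those fits. In liver, Ndn became -0.25 for CR20-CTRL against FED-CTRL by limma voom. Of 734 alternative counts 703 stayed within 1.5 times the main count. Many of these main counts were 0, and a count that stayed at 0 was included. The total therefore says little about the calls in eWAT. Over all genes, edgeR called 656 genes for FED-HFD against FED-CTRL in eWAT without mouse 23 and 861 for CR20-HFD against FED-HFD, against 1278 and 1554 with it. Limma voom and DESeq2 called 388 and 345 genes for HFD against CTRL in eWAT, against 28 by edgeR. With the mouse as a replicate block, the members called between tissues were 25, 21 and 27, as without it; the changes it made to single diet effects between tissues stand beside those results. Low counts limit H19, Kcnk9 and Slc38a4 in eWAT and Airn, Cdkn1c, Grb10, Kcnq1ot1, Mest and Ndn in liver.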
